A study of Mus musculus with 4 samples.

Results

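Imprinted genes are transcribed mainly from the copy inherited from 1 parent, and 37 of them were examined here. They were listed by symbol from known imprinted loci, and each matched 1 of the 53715 genes of the count table. The listing rule used no measured value, but the list was drawn up with earlier results of these data known. By textbook parental origin, 16 are maternally expressed (H19, Igf2r, Meg3, Rian, Mirg, Zim1, Ube3a, Kcnq1, Cdkn1c, Phlda2, Slc22a18, Tssc4, Cd81, Ascl2, Grb10 and Gnas) and 21 are paternally expressed. The study compared wild-type with Rif1-knockout cells, both on the C57BL/6 background and both labelled as primordial germ cells of E12.5 embryos. Rif1 is a chromatin protein that sets replication timing and takes part in double-strand break repair. Each group, WT and Rif1_KO, has 2 libraries, each made from 1000 cells enriched by magnetic sorting (MACS), by a variant of Smart-seq2 in which the Tn5 transposase cuts and tags the cDNA. The sources used here do not give which part of Rif1 was deleted, the sex of the embryos, or whether the libraries came from separate embryos or pools.

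An imprint is DNA methylation laid down at a control region in only 1 of the parental germ lines and copied through every somatic cell division. Within a cluster of imprinted genes, the control region often acts through a long noncoding RNA, such as Airn or Kcnq1ot1, or through an insulator, as between Igf2 and H19, so that neighbouring genes are expressed from opposite parental copies. Primordial germ cells erase these marks as they settle in the gonad and lay down new ones later according to sex, whereas the gonad's somatic cells and blood keep them. Several assignments hold only for some tissues or transcripts: Ube3a is imprinted in neurons, Grb10 is paternally expressed in neurons, the Gnas locus makes transcripts of both origins, and several genes of the Kcnq1 cluster are imprinted mainly in the placenta. The counts carry no information on alleles, so all values below are levels of both copies together and none shows parental origin.

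The deposited totals ran from 11724630 to 14421298 counts per library. Genes with at least 10 counts numbered 13314 and 13566 in WT replicates 1 and 2, and 15226 and 16211 in Rif1_KO replicates 1 and 2. The part of this difference in the levels of genes near undetected in WT was not tested. Rif1 stood at 43.7 and 4.73 CPM (counts scaled to a common library size) in WT replicates 1 and 2, and at 86.2 and 63.9 CPM in Rif1_KO replicates 1 and 2, so its transcript was higher in both libraries labelled knockout. The reads therefore do not mark the labelled knockout, and every direction below is between libraries labelled Rif1_KO and WT. Lists of 4 values follow this order throughout: WT replicate 1, WT replicate 2, Rif1_KO replicate 1, Rif1_KO replicate 2. The germ cell genes Dazl and Ddx4 were highest in WT replicate 2, at 12.99, 196, 2.03 and 4.08 CPM and at 0.645, 59.2, 1.06 and 0.530 CPM. Other germ cell markers were highest elsewhere: Prdm1 stood at 0.276, 0.323, 0.904 and 17.7 CPM, Kit at 0.829, 7.42, 11.5 and 2.86 CPM, and Dnd1 at 8.84, 5.81, 6.41 and 1.01 CPM. Some were low in every library: Pou5f1 had 13, 9, 4 and 11 counts, Nanog 5, 3, 9 and 50, and Nanos3 8, 21, 8 and 8. CPM were computed on totals scaled by trimmed means (TMM) and serve for comparisons of a gene between libraries, and FPKM (the same per kilobase of exon) serve for comparisons between genes. With edgeR's quasi-likelihood test, 2 of 15466 tested genes passed an adjusted p of 0.05, or 0.0129% of them: the alpha-globin genes Hba-a1 and Hba-a2, named here after their values were seen, both lower in Rif1_KO.

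No imprinted gene was called by edgeR after adjustment, of the 34 that passed the filter on low counts (Magel2, Ascl2 and Slc22a18 did not). At an unadjusted p under 0.05, Airn and Tssc4 were higher and Peg13 was lower in Rif1_KO, against 5.35% of all tested genes that were higher and 3.05% that were lower at that threshold. DESeq2 called the same 3 genes after adjustment, while over all genes it called 2.13% higher and 1.23% lower. All 3 passed the filter on low counts only through the group where they were high, so their p-values are not independent of that difference. Limma-voom called none of the 34. The median fitted log2 fold change was -0.12 over the 34 imprinted genes and -0.11 over all tested genes, with 14 fitted above 0 and 20 below. For single values no p is given, because the smallest that 2 libraries against 2 allow in an exact permutation test is 0.333 (two-sided). In bulk libraries, fewer cells of a type and less RNA per cell cannot be told apart.

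**Figure D1:**
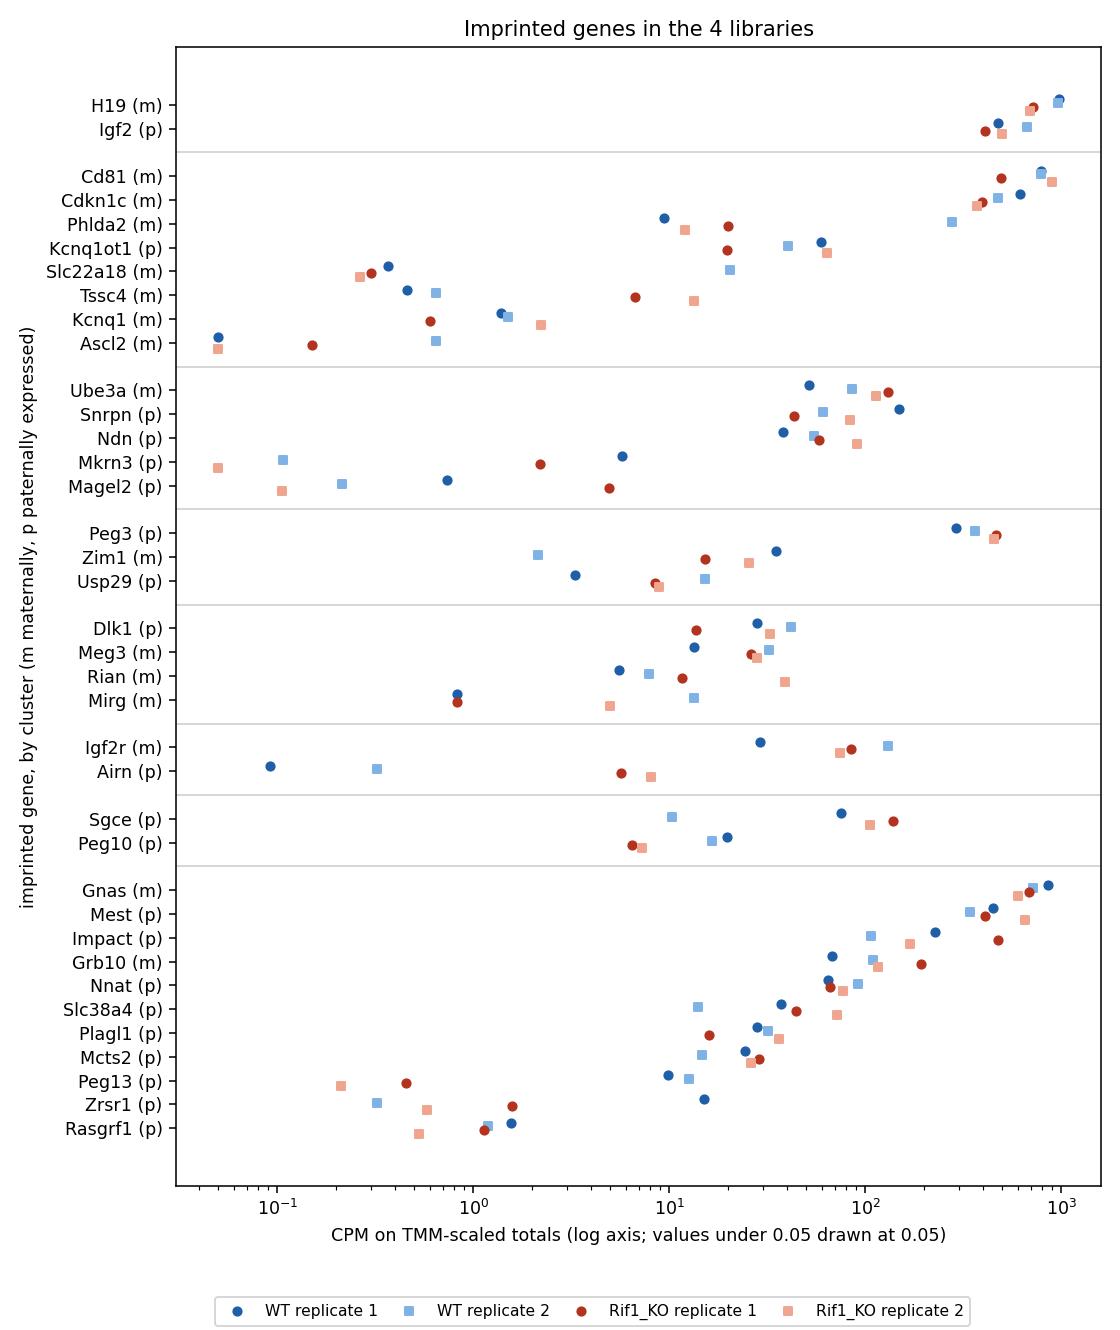
Levels of the 37 imprinted genes in the 4 libraries, in CPM on a log axis, grouped by cluster with the most abundant gene of each cluster first; the lowest block holds genes outside the clusters. H19, Cd81, Cdkn1c and Gnas lie at the right with groups close together, whereas Airn, Tssc4 and Peg13 have WT (blue) and Rif1_KO (red) points far apart, and Phlda2 and Slc22a18 have 1 high point, WT replicate 2.

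Levels spanned more than 3 orders of magnitude. By mean FPKM over the 4 libraries, the most abundant were H19 at 340, Cd81 at 258, Cdkn1c at 229, Mest at 117 and Igf2 at 89.8, and the least abundant was Rasgrf1 at 0.0996. In CPM, 9 genes averaged over 100, 16 between 10 and 100, 11 between 1 and 10, and 1 (Ascl2) under 1. H19, a noncoding RNA that limits growth, was above every other imprinted gene in each library except Rif1_KO replicate 2, where the tetraspanin gene Cd81 stood at 313 FPKM against 281 FPKM for H19. The summed level of all 37 genes was 5461, 5515, 4997 and 5387 CPM, where the groups overlapped, but 0.464%, 0.438%, 0.549% and 0.705% of the deposited counts, where both Rif1_KO libraries were above both WT libraries.

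The balance of the 2 parental classes differed between the groups in sums but not gene by gene. The maternally expressed genes took 70.0% and 76.1% of the summed FPKM in the WT replicates and 61.7% and 63.3% in the Rif1_KO replicates, a share that does not depend on how libraries are scaled. Both Rif1_KO shares lie below both WT shares. That order was not kept with H19, Cd81 and Cdkn1c all left out. Over the 34 genes that remained, the shares were 18.4%, 47.6%, 20.3% and 17.2%, and the groups overlapped. With Phlda2 left out as well, they were 17.2%, 22.0%, 17.8% and 15.7%, and the groups still overlapped. H19, Cd81 and Cdkn1c were left out only together, so the part of each was not tested. Without Phlda2 alone, the shares were 69.8%, 71.9%, 61.1% and 63.0%. Gene by gene, the fitted log2 fold changes of the 14 tested maternally expressed genes had their median at -0.01, with 6 above 0 and 8 below, and those of the 20 paternally expressed genes at -0.17, with 8 above and 12 below, beside -0.11 over all tested genes. Without WT replicate 2 the maternally expressed median was 0.90, beside 0.285 over all tested genes in that fit. Other settings also turned the sign of both medians. The median over all tested genes moved with the setting too, to 0.164 with upper-quartile factors.

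**Figure D2:**
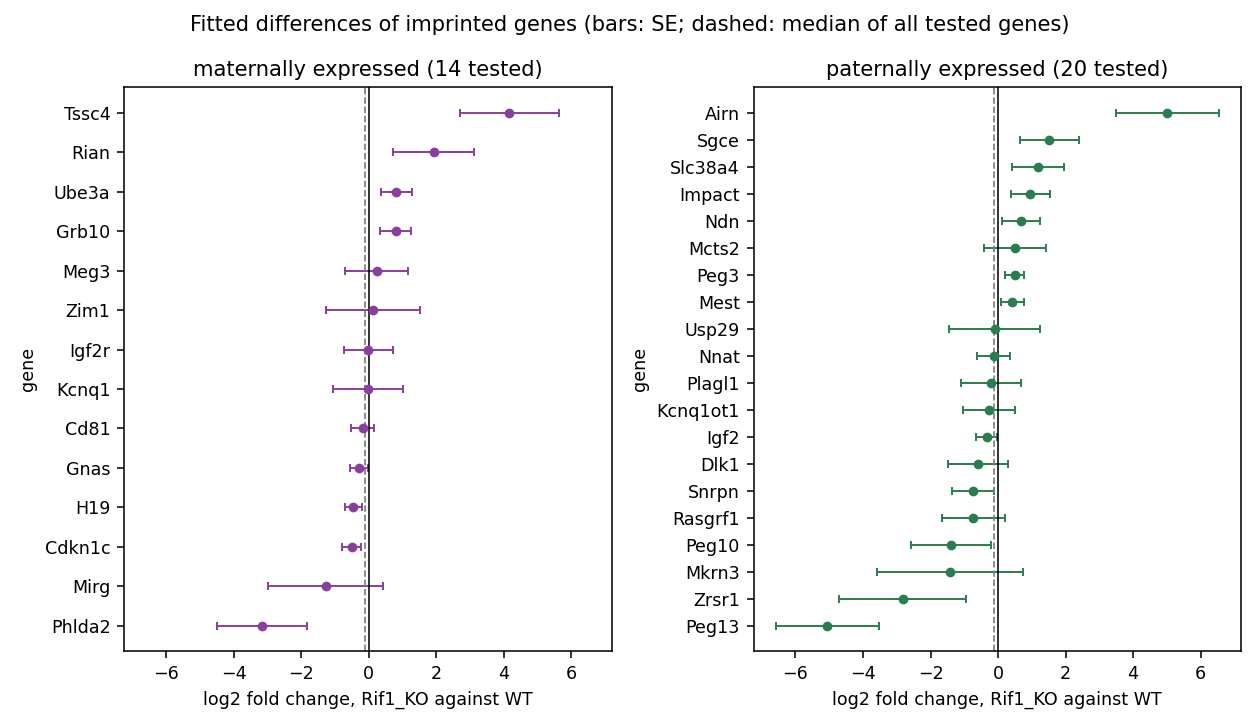
Fitted log2 fold changes of Rif1_KO against WT with edgeR for the 14 maternally and 20 paternally expressed genes tested; points are estimates, bars 1 SE on each side, and the dashed line is the median of all tested genes at -0.11. Tssc4, Airn and Peg13 lie farthest from 0 beside Phlda2, and the bars of many other genes, such as Igf2r, Kcnq1 and Usp29, pass 0.

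Of the 34 tested imprinted genes, 10 had both Rif1_KO libraries above both WT libraries (Airn, Tssc4, Rian, Peg3, Ndn, Ube3a, Grb10, Sgce, Mcts2 and Slc38a4), and 6 had both below (H19, Cdkn1c, Gnas, Peg10, Peg13 and Rasgrf1). Slc22a18, not tested, was below too. Over all tested genes, 21.0% were higher and 18.4% lower in this sense. The split depends on the scaling: it was 8 higher and 7 lower with DESeq2's size factors, 11 and 3 with upper quartiles, and 14 and 2 on the deposited totals. The shares over all tested genes shifted in the same way, from 19.7% higher and 20.1% lower with the size factors to 34.4% and 9.07% on the deposited totals. By class, 4 maternally and 6 paternally expressed genes were among the higher ones, and 3 of each among the lower ones.

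The Igf2r cluster held the largest fitted increase among the 34 genes. Airn, a long noncoding RNA transcribed from the paternal copy that silences Igf2r in cis, lies on the plus strand of chromosome 17 (mm10, chr17:12741311-12860122), and Igf2r, the receptor that clears IGF2, on the minus strand (chr17:12682406-12769664), so that the gene bodies share 28354 bases and no exon base. Airn had 1, 3, 75 and 153 counts, or 0.0921, 0.323, 5.65 and 8.10 CPM. It was close to undetected in both WT libraries and present in both Rif1_KO libraries. The pooled counts gave a ratio of Rif1_KO over WT of 35.7, with an exact 95% interval from counting error alone of 13.8 to 132. In edgeR the log2 fold change of Airn was 5.01 ± 1.53 (SE, n = 2 per group; adjusted p = 0.571), and in DESeq2 the adjusted p was 0.0222. Igf2r stood at 29.1, 130, 84.3 and 74.0 CPM, so both Rif1_KO libraries lay between the WT libraries, and its log2 fold change was -0.01 ± 0.73 (SE; edgeR adjusted p = 0.999). Per length, Airn over Igf2r was 0.00834 and 0.00653 in WT and 0.177 and 0.289 in Rif1_KO. The cluster's paternally expressed RNA thus stood apart between the groups while its protein-coding partner did not. Counting used no strand option, so reads of either strand within Airn's exons were assigned to it.

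Tssc4, which encodes a spliceosome assembly factor, was also near undetected in WT. It had 5, 6, 89 and 254 counts, or 0.461, 0.645, 6.71 and 13.5 CPM, with a ratio of pooled counts of 19.6 (95% interval from counting error alone, 10.8 to 39.5). Both Rif1_KO libraries were above both WT libraries. The fitted log2 fold change was 4.17 ± 1.46 (SE, n = 2 per group; edgeR adjusted p = 0.572; DESeq2 adjusted p = 0.0236). Its neighbour Cd81, 1314 bases away and transcribed in the same direction, stood at 791, 787, 492 and 902 CPM, and there the groups overlapped (log2 fold change -0.18 ± 0.34, SE; edgeR adjusted p = 0.934). Of the exon bases of Tssc4, 11.9% are shared with Trpm5. The promoter windows of Airn and Tssc4, the 2 genes higher at the unadjusted threshold, are printed here to show how unlike they are in CpG, the dinucleotide that carries methylation. The windows are from RefSeq on GRCm38.p6 (mm10), 250 bases before to 50 after the start, for Airn chr17:12741061-12741360 and for Tssc4 chr7:143069118-143069417, both on the plus strand. Capitals mark each CpG, 3 in Airn and 23 in Tssc4, and CpG outside the windows was not counted.
Airn: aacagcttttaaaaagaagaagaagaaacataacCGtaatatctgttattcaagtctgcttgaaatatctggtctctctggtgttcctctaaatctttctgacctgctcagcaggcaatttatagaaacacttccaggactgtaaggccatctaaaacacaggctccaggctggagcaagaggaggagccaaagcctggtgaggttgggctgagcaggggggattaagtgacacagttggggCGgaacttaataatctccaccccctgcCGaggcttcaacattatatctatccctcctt
Tssc4: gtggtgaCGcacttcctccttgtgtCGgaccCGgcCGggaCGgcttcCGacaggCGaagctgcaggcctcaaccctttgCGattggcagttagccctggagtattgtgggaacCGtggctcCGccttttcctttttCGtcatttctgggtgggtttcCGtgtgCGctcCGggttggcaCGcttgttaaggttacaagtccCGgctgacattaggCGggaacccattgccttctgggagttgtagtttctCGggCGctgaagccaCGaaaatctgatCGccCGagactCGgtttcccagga

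The Kcnq1 cluster on chromosome 7 holds 8 of the 37 genes, all maternally expressed but Kcnq1ot1. Its abundant growth inhibitor Cdkn1c, which encodes the cell cycle inhibitor p57, stood at 618, 478, 396 and 374 CPM, with both Rif1_KO libraries below both WT libraries and a log2 fold change of -0.51 ± 0.29 (SE, n = 2 per group; edgeR adjusted p = 0.688). As a share of all deposited counts, Cdkn1c took 0.0526%, 0.0379%, 0.0436% and 0.0489%, where the groups overlapped, so its order depends on the scaling. Gm44732 shares 30.7% of its exon bases, and reads there were counted for both. Kcnq1ot1, the noncoding RNA that silences the cluster in cis from the paternal copy, stood at 59.5, 40.3, 19.7 and 63.5 CPM, with overlapping groups. Kcnq1, a potassium channel gene, stayed at or under 2.22 CPM in each library, and Ascl2, a trophoblast transcription factor gene, had 0, 6, 2 and 0 counts. Per length, Cdkn1c over Kcnq1ot1 was 474, 541, 921 and 269, again without a separation of the groups.

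Phlda2 and Slc22a18, adjacent genes of this cluster, were high in 1 library only. Phlda2, which encodes a pleckstrin-homology protein known to restrain placental growth, stood at 9.40, 277, 19.97 and 12.02 CPM, and Slc22a18, a transporter gene, at 0.369, 20.5, 0.301 and 0.265 CPM. For both genes WT replicate 2 was far above the other 3 libraries, which lay close together. Tspan32, a tetraspanin gene toward the other end of the cluster and outside the 37, was likewise highest in WT replicate 2, at 0.737, 104, 6.33 and 4.66 CPM. The genes between them did not share it: Cdkn1c, 12685 bases from Slc22a18, had its highest value in WT replicate 1. Phlda2 had a log2 fold change of -3.16 ± 1.34 (SE, n = 2 per group; edgeR adjusted p = 0.598), and that difference rests on WT replicate 2: without it the value was 0.78, and without WT replicate 1 it was -4.07 (edgeR adjusted p = 1.46e-10, with the lone WT library assumed to vary like the others). Slc22a18 did not pass the filter in the fit of all 4 libraries. The sum of the germ cell markers was high in the same library, at 37.7, 501, 45.5 and 40.1 CPM over 13 markers, with Mael at 0 in Rif1_KO replicate 2. Dazl, Dppa3, Ddx4 and Utf1 made up most of that library's sum. Pou5f1, Dnd1, Kit, Mael, Nanog and Prdm1 were highest in other libraries. Dppa3, a germ cell factor that guards imprints in the early embryo, stood at 10.2, 165, 11.8 and 5.77 CPM. The part of germ cell content in the levels of Phlda2 and Slc22a18 was not tested.

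**Figure D3:**
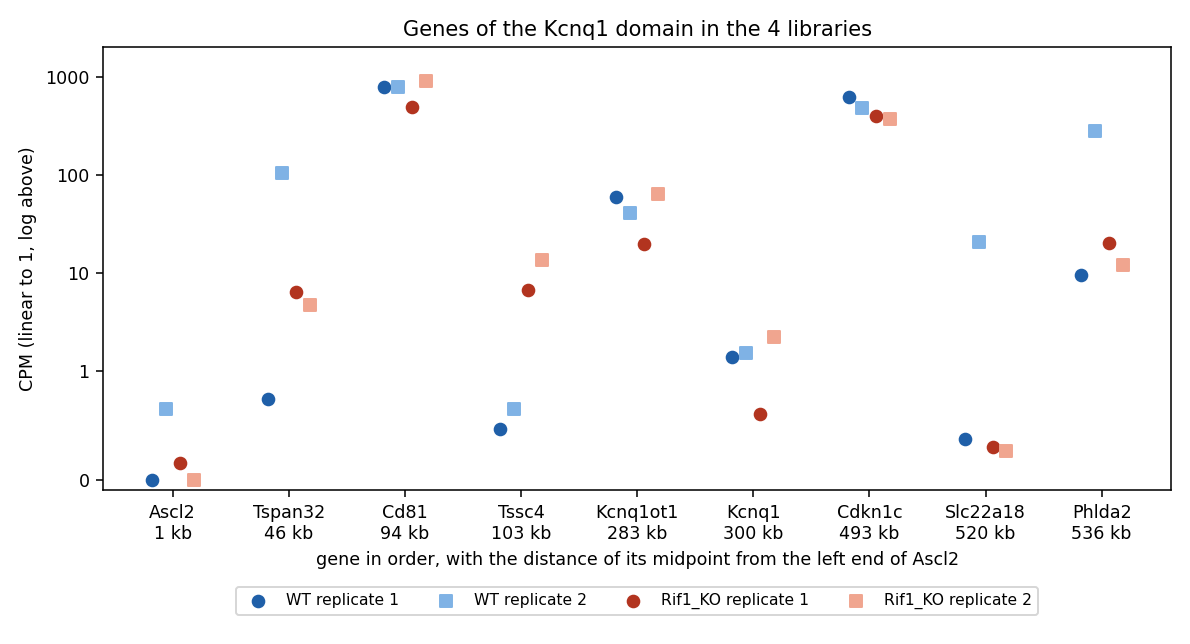
CPM of the genes of the Kcnq1 cluster and of Tspan32 in the 4 libraries, in order along the chromosome with the distance of each gene's midpoint from the left end of Ascl2; the axis is linear up to 1 and logarithmic above. Tspan32, Slc22a18 and Phlda2 each have 1 high point, WT replicate 2 (104, 20.5 and 277 CPM), whereas Tssc4 has both Rif1_KO points above both WT points.

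The promoter windows of the adjacent pair Phlda2 and Slc22a18, which were high in the same library, differ widely in CpG content: 26 in Phlda2 and 2 in Slc22a18, against a median of 7 over the 32851 RefSeq promoters. They lie at chr7:143502475-143502774 on the minus strand for Phlda2 and at chr7:143473539-143473838 on the plus strand for Slc22a18 (GRCm38.p6). The gene bodies are 2210 bases apart and read toward each other. Capitals mark each CpG.
Phlda2: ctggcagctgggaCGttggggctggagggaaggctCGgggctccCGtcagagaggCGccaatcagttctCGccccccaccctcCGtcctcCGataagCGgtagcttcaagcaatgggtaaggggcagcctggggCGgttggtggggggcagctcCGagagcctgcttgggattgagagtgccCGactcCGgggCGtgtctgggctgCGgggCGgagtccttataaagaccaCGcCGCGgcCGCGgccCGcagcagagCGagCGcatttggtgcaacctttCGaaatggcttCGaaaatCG
Slc22a18: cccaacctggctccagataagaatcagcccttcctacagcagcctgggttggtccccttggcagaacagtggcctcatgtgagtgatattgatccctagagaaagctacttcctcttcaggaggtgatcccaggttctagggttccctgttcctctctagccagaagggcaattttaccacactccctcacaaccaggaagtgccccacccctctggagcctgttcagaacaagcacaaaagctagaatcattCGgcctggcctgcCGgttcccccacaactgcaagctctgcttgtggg

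At the Igf2 and H19 cluster both genes were abundant and kept a similar ratio in every library. H19 stood at 975, 961, 721 and 692 CPM, both Rif1_KO libraries below both WT libraries and each pair close together. Its log2 fold change was -0.45 ± 0.25 (SE, n = 2 per group; edgeR adjusted p = 0.668). On deposited totals its share was 0.0829%, 0.0763%, 0.0793% and 0.0906% of counts, where the groups overlapped, so this order too depends on the scaling. Igf2, the fetal growth factor expressed from the paternal copy, stood at 476, 670, 409 and 501 CPM with overlapping groups and a log2 fold change of -0.33 ± 0.31 (SE; edgeR adjusted p = 0.818). Other genes share 64.5% of its exon bases, mostly Gm49394. Within libraries, H19 over Igf2 per length was 4.77, 3.34, 4.11 and 3.22, so replicate 1 had the higher ratio in each group and the groups overlapped.

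In the Snrpn and Ube3a cluster, the maternally expressed ubiquitin ligase gene Ube3a was higher in both Rif1_KO libraries, at 51.8, 85.7, 130 and 113 CPM (log2 fold change 0.82 ± 0.47, SE, n = 2 per group; edgeR adjusted p = 0.695). Ndn, which encodes the growth suppressor necdin, had the same order at 38.2, 54.9, 58.02 and 90.7 CPM, although the lowest Rif1_KO value lay only just above the highest WT value. Snrpn, a gene of the splicing machinery, went the other way in its fitted value but with overlapping groups: it stood at 149, 61.2, 43.1 and 83.6 CPM, with a log2 fold change of -0.73 ± 0.62 (SE; edgeR adjusted p = 0.808). Snurf and Gm38393 are among the genes that share 34.1% of the exon bases of Snrpn. Per length, Snrpn over Ube3a was 27.5, 6.82, 3.17 and 7.08, so WT replicate 1 alone stood apart. Mkrn3, a zinc finger gene, had 62, 1, 29 and 0 counts, and Magel2, a ubiquitin ligase regulator gene, had 8, 2, 65 and 2. For both, replicate 1 was the higher library of each group.

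Peg3, a zinc finger gene of the Peg3 cluster that takes part in maternal care and cell survival, stood at 290, 365, 463 and 453 CPM. Both Rif1_KO libraries were above both WT libraries and nearly equal, with a log2 fold change of 0.49 ± 0.29 (SE, n = 2 per group; edgeR adjusted p = 0.707). This order was kept on the deposited totals, where Peg3 took 0.0246%, 0.0289%, 0.0509% and 0.0594% of counts. Usp29, a deubiquitinase gene whose start lies 146 bases away on the other strand, was far less abundant at 3.32, 15.3, 8.44 and 8.90 CPM. The maternally expressed zinc finger gene Zim1 stood at 35.2, 2.15, 15.3 and 25.4 CPM. In Usp29 and Zim1 the Rif1_KO libraries lay between 2 WT libraries that differed 4.602-fold and 16.4-fold, in opposite directions.

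The Peg10 cluster holds a pair of paternally expressed genes transcribed away from each other from starts 98 bases apart. Sgce, which encodes epsilon-sarcoglycan, stood at 75.2, 10.3, 138 and 106 CPM, and Peg10, a retrotransposon-derived gene needed in the placenta, at 19.6, 16.5, 6.48 and 7.26 CPM. Both Rif1_KO libraries were above both WT libraries for Sgce and below them for Peg10. Per length, Sgce over Peg10 was 2.41 and 0.394 in WT and 13.4 and 9.17 in Rif1_KO, a ratio free of library scaling. Neither gene passed: the log2 fold change was 1.51 ± 0.88 (SE, n = 2 per group; edgeR adjusted p = 0.699) for Sgce and -1.39 ± 1.19 (SE; edgeR adjusted p = 0.808) for Peg10. For Sgce the size depends on WT replicate 2, with 0.71 without that library and 3.61 without WT replicate 1 (edgeR adjusted p = 4.38e-05).

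**Figure D4:**
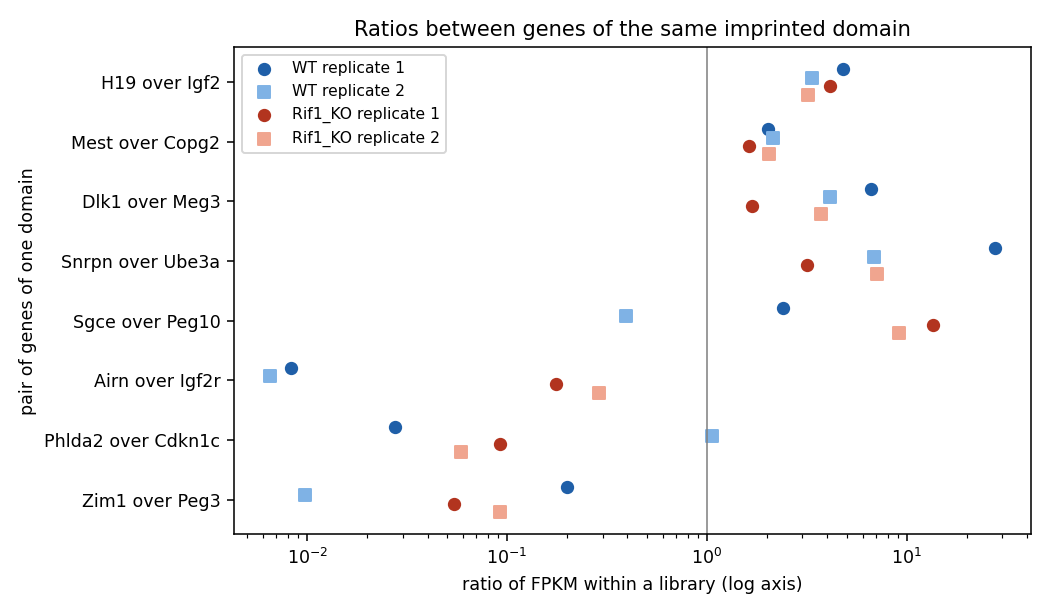
Ratio of FPKM between genes of 1 domain within each library, on a log axis, with a line at 1. Airn over Igf2r and Sgce over Peg10 have both Rif1_KO points to the right of both WT points, whereas H19 over Igf2 stays between 3.22 and 4.77 in all 4 libraries and Mest over Copg2 between 1.62 and 2.15.

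The Dlk1 and Meg3 cluster was low. Dlk1, a paternally expressed gene for a Notch-like membrane protein, stood at 27.9, 41.7, 13.7 and 32.7 CPM, and the noncoding RNA Meg3 at 13.5, 32.4, 26.1 and 28.0 CPM, with overlapping groups for both. Rian, a noncoding RNA that hosts small nucleolar RNAs, was higher in both Rif1_KO libraries at 5.53, 7.85, 11.7 and 39.0 CPM. Mirg, which hosts microRNAs, stood at 0.829, 13.3, 0.829 and 4.98 CPM, high in replicate 2 of each group. Dlk1 over Meg3 per length was 6.64, 4.12, 1.68 and 3.73, lower in both Rif1_KO libraries but with replicate 2 of the groups close together.

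Among the genes outside the clusters, Peg13 had the fitted decrease farthest from 0. This noncoding RNA, which lies within the Trappc9 locus (chr15:72805600-72810324, minus strand, mm10), had 107, 118, 6 and 4 counts, or 9.86, 12.7, 0.452 and 0.212 CPM. The groups were far apart and the replicates close. The ratio of pooled counts was 35.9-fold in favour of WT (95% interval from counting error alone, 19.2 to 75.9), and the log2 fold change was -5.06 ± 1.53 (SE, n = 2 per group; edgeR adjusted p = 0.571; DESeq2 adjusted p = 0.00134). The host gene Trappc9 stood at 8.75, 2.47, 6.10 and 3.71 CPM with overlapping groups, and did not show the separation seen in Peg13. Zrsr1, a retrogene within Commd1 that encodes a splicing factor, stood at 15.0, 0.323, 1.58 and 0.583 CPM, high only in WT replicate 1 (log2 fold change -2.82 ± 1.88, SE; edgeR adjusted p = 0.744). Without that library its value was 1.76.

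Several single genes were abundant in every library. Gnas, which encodes the stimulatory G protein subunit, stood at 858, 716, 682 and 601 CPM, Mest, a mesoderm-expressed hydrolase gene, at 450, 342, 408 and 653 CPM, and Nnat, which encodes a small membrane protein of calcium handling, at 64.6, 92.2, 66.3 and 76.6 CPM. On this scale only Gnas among them had groups that did not overlap, with both Rif1_KO libraries lower. On the deposited totals its direction turned, at 0.0729%, 0.0568%, 0.0749% and 0.0787% of counts, and Mest was also higher in both Rif1_KO libraries, at 0.0383%, 0.0271%, 0.0448% and 0.0854%. Impact, which encodes a regulator of translation under amino acid shortage, stood at 227, 107, 479 and 170 CPM, and there replicate 1 of each group was the higher. Grb10, an adaptor that damps insulin signalling, stood at 67.6, 110, 193 and 117 CPM (log2 fold change 0.80 ± 0.46, SE, n = 2 per group; edgeR adjusted p = 0.700), and the amino acid transporter gene Slc38a4 at 37.1, 14.0, 44.2 and 71.5 CPM. Both Rif1_KO libraries were above both WT libraries for this pair, by a narrow margin for each. Plagl1, a zinc finger gene, stood at 28.1, 32.0, 15.97 and 36.1 CPM, Mcts2, a translation factor retrogene, at 24.3, 14.6, 28.6 and 26.2 CPM, and Rasgrf1, an exchange factor for Ras, at or under 1.57 CPM in each library.

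Mest keeps a maternal methylation mark over its promoter, and its window is printed because Mest is the only one of the 37 genes for which a window was found to hold more than 1 copy of the hexamer TGCCGC, the core of the motif read by the imprint guardian ZFP57. It lies at chr6:30737800-30738099 on the plus strand (GRCm38.p6), and capitals mark the hexamer, here on the opposite strand.
Mest: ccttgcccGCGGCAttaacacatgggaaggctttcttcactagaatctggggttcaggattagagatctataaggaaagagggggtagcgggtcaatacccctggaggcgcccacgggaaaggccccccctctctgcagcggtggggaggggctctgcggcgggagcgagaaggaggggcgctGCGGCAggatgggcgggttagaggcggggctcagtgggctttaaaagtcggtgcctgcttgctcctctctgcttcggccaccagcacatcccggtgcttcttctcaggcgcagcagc

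Promoter windows were found for 30 of the 37 genes, 45 windows in all, some of which overlap. Of these, 10 windows (22.2%), of 9 genes, held TGCCGC on either strand, against 11.6% of all RefSeq promoters, and the median CpG count was 13 against 7. The genes were Mest, Mcts2, Nnat, Zim1, Snrpn, Igf2, Plagl1, Grb10 and Meg3. Airn and Tssc4 were not among them, and no window was found for Peg13. A match is a string of letters in a window, not a bound site.

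Replicates of a group often differed as much as the groups did. By more than 4-fold, a limit chosen after the values were seen, 8 of the 34 tested genes differed between the WT replicates (Igf2r, Mirg, Mkrn3, Phlda2, Zim1, Usp29, Sgce and Zrsr1), against 33.7% of all tested genes, and 2 did between the Rif1_KO replicates (Mirg and Mkrn3), against 18.2%. Whether the imprinted genes differ from all genes in this was not tested. Counts differed between replicates by far more than sampling noise in both groups.

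Other imprinted genes, numbered 45 listed and 27 tested: edgeR called none, 0 were higher and 1 was lower at an unadjusted p under 0.05 (beside 5.35% and 3.05% of all tested genes), and their median log2 fold change was -0.01 (beside -0.11). The lower one was Peg12, a paternally expressed gene of the Frat family near Mkrn3, at 213, 55.7, 29.7 and 39.1 CPM (log2 fold change -1.97 ± 0.71, SE, n = 2 per group; edgeR adjusted p = 0.573). Dhcr7, which encodes the last enzyme of cholesterol synthesis, stood at 69.5, 25.5, 3.32 and 14.5 CPM, also with both Rif1_KO libraries below both WT libraries. Of 24 genes that set, read, guard or erase imprints, 23 were tested and edgeR called none. Both Rif1_KO libraries were above both WT libraries in 11 and below in 3, beside 21.0% and 18.4% of all tested genes, and the median log2 fold change was 0.80 beside -0.11. Dnmt3b, a de novo DNA methyltransferase, stood at 0.461, 1.07, 21.6 and 11.3 CPM, near undetected in WT (log2 fold change 4.41 ± 1.51, SE; edgeR adjusted p = 0.571; DESeq2 adjusted p = 0.00680). It passed the filter on low counts only through the Rif1_KO libraries. Ctcfl, a germ line paralogue of the insulator protein CTCF, stood at 12.4, 1.72, 0.452 and 0.530 CPM, and Dppa3, as above, was high only in WT replicate 2.

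Summed markers of red cells, stroma and epithelium separated the groups. Erythroid markers summed to 138700, 113000, 9886 and 4266 CPM over 11 genes, all 11 lower in both Rif1_KO libraries, with Klf1 at 0 in Rif1_KO replicate 2. Stromal markers summed to 623, 423, 1703 and 1388 CPM over 13 genes, 9 of them higher in both Rif1_KO libraries, with Lum and Acta2 at 0 in WT replicate 2. Over all tested genes, 21.0% were higher and 18.4% lower in both Rif1_KO libraries, shares that shift with the scaling. Epithelial markers (9 genes) summed to 211, 257, 67.9 and 161 CPM, lower in both Rif1_KO libraries. Gene by gene, only 2 of the 7 tested epithelial markers were lower in both Rif1_KO libraries, and the groups overlapped in 5. The part of these cells in the levels of the imprinted genes was not tested. Endothelial markers (8 genes) ranged from 79.3 to 307 CPM, supporting cell markers (11 genes) from 550 to 833, and leukocyte markers (6 genes) from 2.64 to 19.8, with overlapping groups for these sums.

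**Figure D5:**
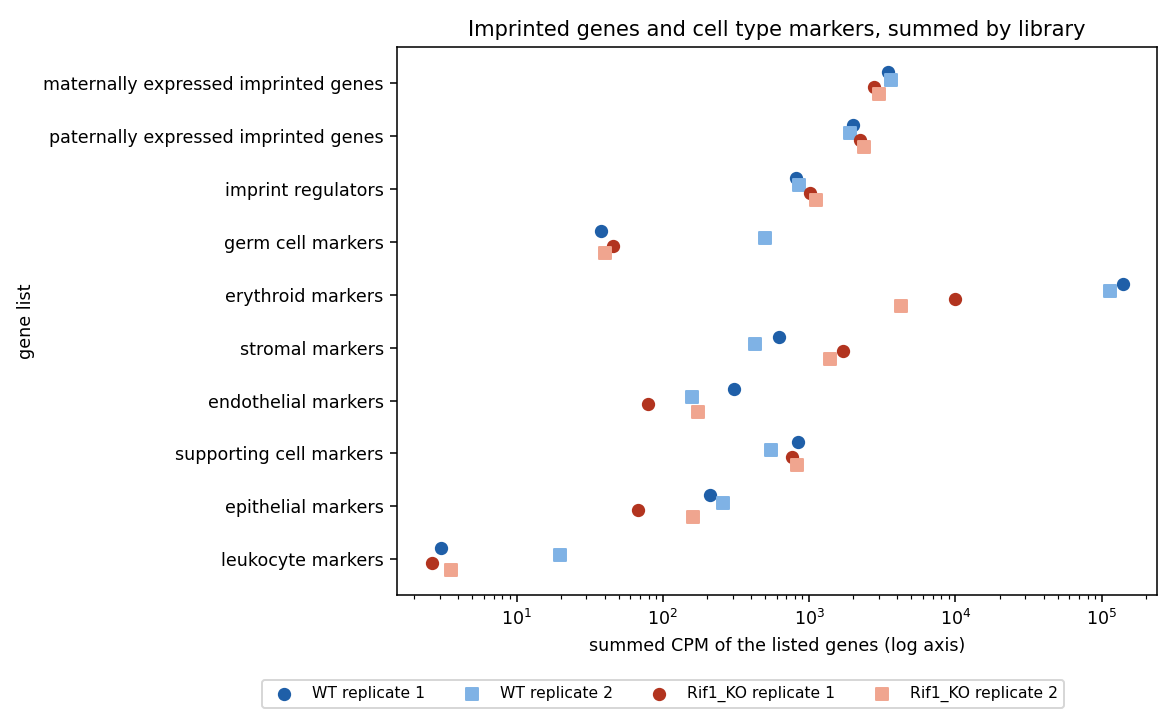
Summed CPM of imprinted genes by parental class, of genes that set, read, guard or erase imprints, and of 7 cell type marker lists. Values are for the 4 libraries, on a log axis. The imprinted sums stay between 1892 and 3623 CPM, whereas the erythroid sum is 138700 and 113000 in WT against 9886 and 4266 in Rif1_KO, and the germ cell sum is high only in WT replicate 2, at 501.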

How the data were processed

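Reads were trimmed with Trim Galore, checked with FastQC, aligned to mm10 with HISAT2 and handled with SAMtools, per the submitters' processing notes (their versions were not given in the sources used). The authors deposited raw counts per gene from featureCounts 1.6.2 on GENCODE vM17, per the file headers, as read pairs with mapping quality of at least 30, multi-mapping and overlapping reads included and no strand option. The 37 genes and all lists were chosen with earlier results of these data known. The table was fitted whole with edgeR 4.0.16 (R 4.3.3, TMM, minimum count 10, 15466 genes, Benjamini-Hochberg adjustment), and SE is the log2 fold change over the root of the F statistic. DESeq2 1.42.0 and limma 3.58.1 (voom) were alternatives. The fitting script was tested on simulated data first. No label says that libraries came from separate embryos, so p-values measure only the spread between them, which may be technical. Genes given full statistics are the 6 with the smallest unadjusted p in each direction; Igf2r, Cd81, Igf2 and Peg10 were added, after their values were seen, as neighbours of these. Values per library were also given for every gene averaging at least 50 CPM in a group and for other cluster members, and up to 3 genes with the smallest p were named from the other imprinted genes and the imprint regulators, with Trappc9 added as the host of Peg13. Intervals cover counting error only. Ipw and Ahsp matched no symbol of the table, and 95 identifiers had no symbol.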

Additional observations from a re-analysis of the deposited data

How the results depend on the processing

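Over all genes, edgeR called 2 with TMM and with DESeq2's size factors, 0 with upper-quartile factors or a minimum count of 50, 54 with no filter and 7 with the replicate block; DESeq2 called 519 and limma-voom 2. Leaving out 1 library gave 5 to 1345, the most without WT replicate 1. Imprinted genes called were 0 in each of these except 3 in DESeq2 and 4 without WT replicate 1 (Sgce, Slc22a18, Phlda2 and Impact), where the lone WT library is assumed to vary like the others and Slc22a18 passed the filter only through that library; leave-one-out counts ran from 0 to 4. Those higher at an unadjusted p under 0.05 were 2, against 7 with no filter, 4 with the replicate block and 1 to 6 with a library left out. Those lower were 1, against 2 with DESeq2's size factors, 3 with no filter, 2 in DESeq2, 2 in limma-voom and 0 to 3 with a library left out. The share of all tested genes at that threshold was computed only for the main fit (5.35% higher and 3.05% lower). The counts in the other settings therefore cannot be read as particular to imprinted genes. The median of the maternally expressed genes ran from -0.27 to 0.90 with a library left out. Over all tested genes the median was -0.184 and 0.285 in those fits (without Rif1_KO replicate 2 and without WT replicate 2). No label says that the replicate numbers pair the samples. Deviations of same-numbered libraries had a correlation of -0.02, which cannot settle whether they were paired, with 2 libraries per group.

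Of the 34 genes, 20 kept their direction in every fit. Airn, Tssc4 and Peg13 were among them. Their groups lay too far apart for these settings to turn the direction, so this adds no support. Direction reversed with upper-quartile factors in Igf2r (0.26), Kcnq1 (0.22), Nnat (0.13), Plagl1 (0.04), Usp29 (0.16) and Cd81 (0.08); with no filter in the same genes (0.34, 0.32, 0.19, 0.13, 0.26 and 0.15) and Kcnq1ot1 (0.06); in limma-voom in Igf2r (0.42) and Usp29 (0.30); and with the replicate block in Igf2r (0.36) and Usp29 (0.28). The cause was not tested. With a library left out, log2 fold changes that changed sign ran from -0.67 to 1.45 (Igf2r), -0.21 to 1.01 (Meg3), -2.99 to 1.80 (Mirg), -1.25 to 0.10 (Snrpn), -8.25 to 3.28 (Mkrn3), -1.30 to 0.42 (Kcnq1ot1), -1.19 to 0.70 (Kcnq1), -4.07 to 0.78 (Phlda2), -0.32 to 0.15 (Nnat), -0.86 to 0.35 (Plagl1), -0.78 to 3.28 (Zim1), -0.77 to 1.39 (Usp29), -0.63 to 0.27 (Cd81) and -3.78 to 1.76 (Zrsr1). Depth limits Airn, Tssc4, Peg13, Magel2, Ascl2, Mkrn3, Slc22a18, Kcnq1, Zrsr1 and Mirg, which have under 10 counts in at least 1 library.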
